A study of Mus musculus with 4 samples.

Results

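The genes described here are 4 killer lectin-like receptors and 2 signalling adaptors of T cells and natural killer (NK) cells. They were taken by name from the 16338 gene rows of each library, and all 6 were present: Klrk1, Klrc1, Klrd1, Klrg1, Hcst and Tyrobp. RNA sequencing was done on mouse T cells that carried the T cell receptor (TCR) named TRP1high or the one named TRP1low. The cells had been stimulated for 48 h by B cells loaded with a peptide named K8 or M9, and were then sorted away from the B cells. Each TCR was combined with each peptide, which gave 4 groups of 1 library. Where 4 values follow each other they are in the order TRP1high K8, TRP1high M9, TRP1low K8 and TRP1low M9. All 4 groups shared the B cell stimulation, and no unstimulated T cells were analysed here. The strain and age of the mice, the peptide sequences and the number of animals behind a library were not given in the sources used here.

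Killer lectin-like receptors are type II membrane proteins with a C-type lectin-like fold. Most are encoded side by side in the NK gene complex, and activated CD8 T cells express several of them. Klrk1 encodes NKG2D, an activating receptor for stress-induced relatives of MHC class I, which has no signalling motif of its own and depends on the adaptor DAP10 (Hcst) or DAP12 (Tyrobp). DAP10 recruits phosphoinositide 3-kinase, and DAP12 carries an ITAM that recruits SYK or ZAP70. Klrd1 encodes CD94, the partner chain of the NKG2 receptors. Klrc1 encodes NKG2A, which forms with CD94 an inhibitory receptor for Qa-1, and Klrg1 encodes an inhibitory receptor for cadherins that marks short-lived effector T cells.

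Values are log2(normalized count + 1) as deposited. The libraries held 29.63 to 41.53 M estimated reads, the fewest in TRP1low with K8, and a single read was worth 0.9895 to 1.3677 normalized counts. For genes at 0 in a library, 3 reads served as a floor, at 1.99 to 2.35 on the log2 scale. No group has a replicate, so no difference between 2 libraries has a p-value, and intervals given with folds are 95% exact (Clopper-Pearson) intervals that cover counting error only. In bulk RNA, fewer cells of a type and less RNA per cell cannot be told apart.

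By the mouse GRCm38 (mm10) annotation, Klrd1 (ENSMUSG00000030165.16, chromosome 6, 129591782 to 129598775), Klrk1 (ENSMUSG00000030149.15, 129610323 to 129623864) and Klrc1 (ENSMUSG00000030167.15, 129666015 to 129678973) lie within 87192 bases of each other. Klrg1 (ENSMUSG00000030114.8, chromosome 6, 122270596 to 122282882) lies apart from them. The adaptor genes are neighbours on chromosome 7: Tyrobp (ENSMUSG00000030579.10) spans 30413760 to 30417585 on the plus strand and Hcst (ENSMUSG00000064109.8) spans 30417712 to 30419854 on the minus strand, with 126 bases between their ends. All 6 are protein-coding, and every value is for the whole gene, so the NKG2D splice forms were not separated.

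The promoters of Klrk1, Klrc1 and Hcst are shown because Klrk1 and Klrc1 differed with the peptide in both TCRs while the adaptor Hcst kept within 2-fold. Each is 300 bases from RefSeq (GRCm38.p6), 250 before and 50 after the start site, on the minus strand as are the genes: chr6:129623815-129624114, chr6:129678924-129679223 and chr7:30419805-30420104. Capitals mark matches on either strand to TGTGGT (the RUNX core), TGANTCA (AP-1) and GGTGTG (a T-box half-site), motifs chosen with the sequences in view.
Klrk1: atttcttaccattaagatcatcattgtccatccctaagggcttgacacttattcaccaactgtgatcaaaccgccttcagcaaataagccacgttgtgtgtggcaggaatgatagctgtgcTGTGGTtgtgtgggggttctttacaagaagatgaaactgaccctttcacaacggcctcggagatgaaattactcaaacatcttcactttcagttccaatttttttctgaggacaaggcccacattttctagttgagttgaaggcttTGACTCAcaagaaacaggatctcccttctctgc
Klrc1: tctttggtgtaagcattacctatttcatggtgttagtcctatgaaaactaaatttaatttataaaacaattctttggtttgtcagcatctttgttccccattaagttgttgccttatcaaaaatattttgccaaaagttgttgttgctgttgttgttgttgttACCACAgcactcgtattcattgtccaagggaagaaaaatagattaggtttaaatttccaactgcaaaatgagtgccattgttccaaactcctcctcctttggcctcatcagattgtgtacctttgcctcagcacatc
Hcst: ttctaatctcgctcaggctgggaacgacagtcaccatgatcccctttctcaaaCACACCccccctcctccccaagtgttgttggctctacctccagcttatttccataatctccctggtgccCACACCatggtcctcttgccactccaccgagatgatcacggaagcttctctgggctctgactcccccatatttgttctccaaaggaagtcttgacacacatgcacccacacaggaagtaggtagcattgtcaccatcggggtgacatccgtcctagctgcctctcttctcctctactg
Klrk1 held 1 RUNX core and 1 AP-1 match, Klrc1 held 1 RUNX core and Hcst held 2 T-box half-sites. Of 32851 RefSeq promoter windows of this length, 16.8% held the RUNX core, 7.81% AP-1 and 19% the T-box half-site. The NFAT core GGAAA, which is not capitalised, was found in 61.3% of the windows, and once each in those of Klrc1 and Hcst. A match describes these letters and is not evidence of binding.

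The first comparison asks how the 6 genes differed between M9 and K8 stimulation. Klrk1 and Klrc1 were higher in the M9 library with both TCRs, Klrd1 was 2-fold higher with M9 in TRP1high and within 2-fold in TRP1low, and Hcst was within 2-fold in both. Klrg1 had reads in TRP1low with K8 alone, and Tyrobp was within the floor in both TRP1high libraries. A gene counted as 2-fold apart when its log2 values differed by at least 1 and 1 of the pair held at least 10 normalized counts. By that rule 3 of the 6 were higher and 0 lower with M9 in TRP1high, where 5.14% and 4.73% of the 16100 genes tested were, and all 3 are receptor genes. In TRP1low 2 were higher and 2 lower, where 7.67% and 7.43% of all genes were. The median difference of the 6 was 0.68 in TRP1high and -0.50 in TRP1low, against -0.016 and 0.023 over all genes. All 6 passed the filter (a mean over the libraries of 1 normalized count or more), Klrg1 through a single library.

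Klrk1, the activating receptor NKG2D, stood at 10.40 (K8) and 12.56 (M9) in the TRP1high pair, and at 7.22 (K8) and 9.47 (M9) in the TRP1low pair. Both M9 values lay above the K8 value of the same TCR, and both TRP1high values lay above both TRP1low values. With M9 it was 4.46-fold higher in TRP1high (interval 4.21 to 4.74, 6085 against 1352 reads) and 4.79-fold higher in TRP1low (3.92 to 5.95, 677 against 108 reads). These intervals overlap. Its log2 difference was exceeded by 1.81% of 13159 genes in TRP1high and by 2.77% of 13288 in TRP1low.

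Klrc1, the inhibitory receptor NKG2A, stood at 5.32 (K8) and 8.70 (M9) in the TRP1high pair, and at 4.40 (K8) and 5.66 (M9) in the TRP1low pair. TRP1high with M9 stood far above the other 3 libraries, which spanned little more than 1 log2. It was 10.6-fold higher with M9 in TRP1high (7.66 to 15.2, 419 against 39 reads) and 2.47-fold higher in TRP1low (1.32 to 4.63, 47 against 15 reads). The TRP1low difference of 1.26 was no longer 2-fold with a pseudocount of 10, nor counted with a minimum of 50 normalized counts. Klrc1 and Klrk1 were the 2 members higher in both TCRs, as were 1.58% of all genes.

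Klrc1 shares sequence with its neighbour Klrc2, which encodes the activating NKG2C. Of the 31-base words in Klrc1 transcripts, 49.6% also occur in Klrc2 transcripts, so reads could have been split between them and the single values are uncertain. Klrc2 held 15, 7, 0 and 1 reads. Summed over both genes, the M9 library was 7.81-fold higher in TRP1high (5.88 to 10.6) and 2.52-fold higher in TRP1low (1.35 to 4.72). For the other 5 members, at most 0.01% of words occur in another gene.

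Klrd1, which encodes CD94, stood at 9.13 (K8) and 10.41 (M9) in the TRP1high pair, and at 9.01 (K8) and 8.83 (M9) in the TRP1low pair. TRP1high with M9 was high and the other 3 libraries were close together. It was 2.43-fold higher with M9 in TRP1high (2.20 to 2.68) and 1.14-fold lower in TRP1low (0.989 to 1.31), an interval that includes no difference.

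**Figure D1:**
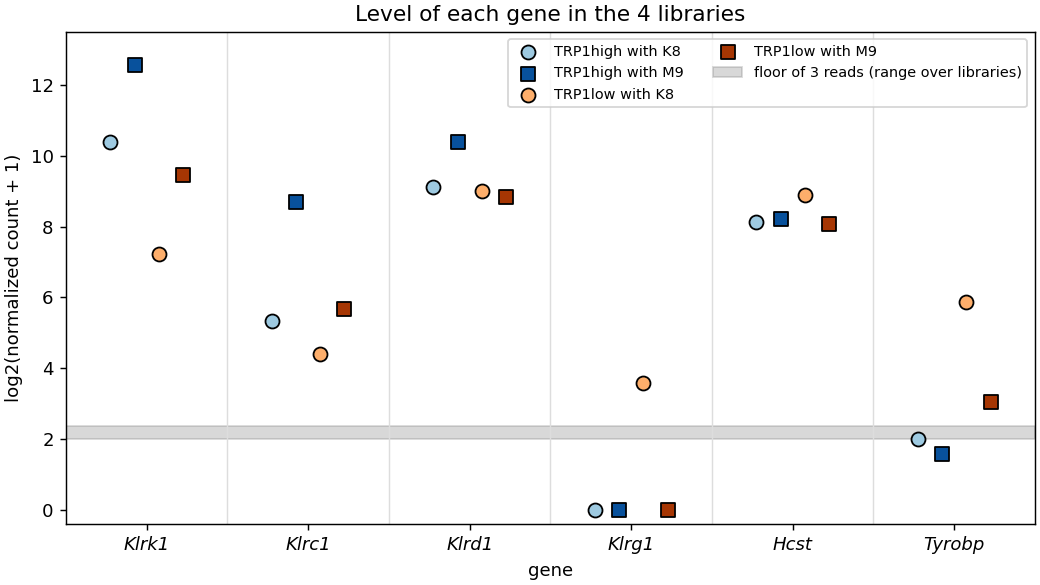
Levels of the 6 genes on the log2(normalized count + 1) scale, 1 point per library, with the 3-read floor as a grey band from 1.99 to 2.35. Klrk1, Klrc1 and Klrd1 are highest in TRP1high with M9 (12.56, 8.70 and 10.41), while Hcst, Tyrobp and Klrg1 are highest in TRP1low with K8 (8.90, 5.88 and 3.58).

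Of the adaptors, Hcst stood at 8.13 (K8) and 8.22 (M9) in the TRP1high pair, and at 8.90 (K8) and 8.07 (M9) in the TRP1low pair. It varied by 0.82 over the 4 libraries, the smallest range of the 6, with TRP1low with K8 highest and the other 3 together. It was 1.06-fold higher with M9 in TRP1high (0.896 to 1.25) and 1.77-fold lower in TRP1low (1.5 to 2.09).

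Tyrobp held 3, 2, 42 and 7 reads. Both TRP1high libraries lay within the floor, so no fold is given between them. In the TRP1low pair it stood at 5.88 (K8) and 3.03 (M9) and was 8.03-fold lower with M9 (3.48 to 20.6). Klrg1 held 0, 0, 8 and 0 reads, and in TRP1low it was 3.48-fold lower with M9 when set against the 3-read floor of that library. This ratio takes the 8 reads as exact and has no counting interval. The 2-fold call of Klrg1 ended with a minimum of 50 normalized counts.

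Tyrobp is also a gene of myeloid cells, and Trem2 and Siglech, 2 of the myeloid markers, encode receptors that signal through it. Of 14 listed markers of myeloid or dendritic cells 11 were measured, and 7 lay above the floor in TRP1low with K8 against 2 or 3 in the other libraries. Their summed level was 229 normalized counts in TRP1low with K8 and 72.1 to 123 in the others. Siglech held 23 reads in TRP1low with K8 and 0 or 1 elsewhere, and Lyz2, the macrophage lysozyme, held 33 against 2 to 11. Other markers did not follow Tyrobp. Cd68 held 51, 109, 63 and 55 reads, the most in TRP1high with M9. Trem2 held 0, 0, 6 and 7 reads, and so was not lower with M9 in TRP1low. Csf1r, S100a9, Trem2 and Spi1 were at 0 in TRP1high with K8, S100a8, Siglech and Trem2 in TRP1high with M9, and Fcer1g, S100a8 and Siglech in TRP1low with M9, while none was at 0 in TRP1low with K8. The part of such cells in the Tyrobp and Klrg1 values was not tested.

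**Figure D2:**
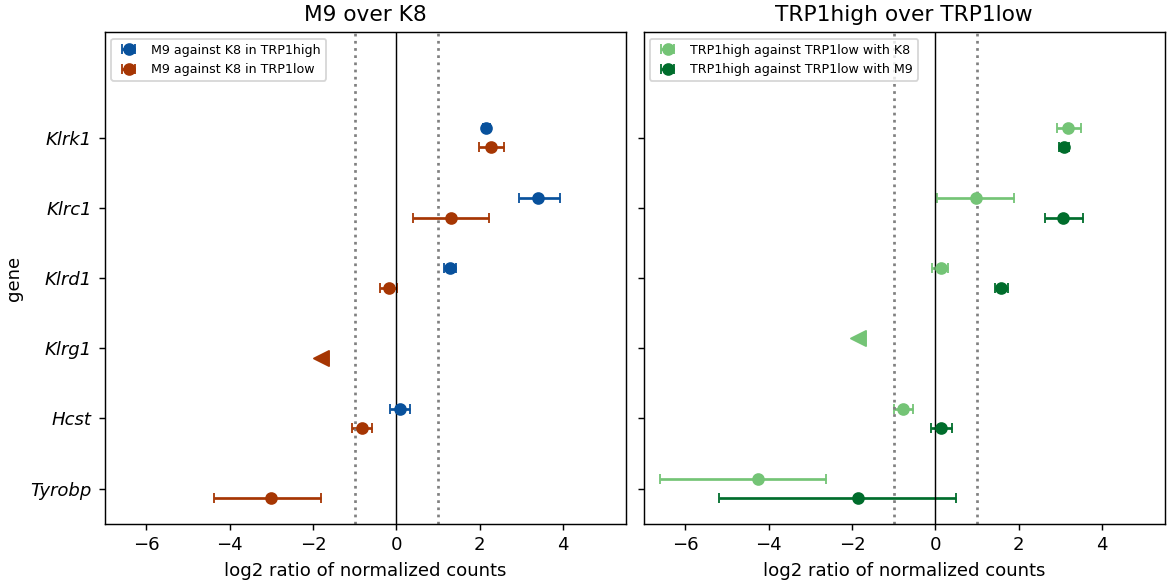
Log2 ratios of normalized counts for M9 over K8 (left) and TRP1high over TRP1low (right). Bars are 95% counting intervals, dotted lines mark 2-fold, and triangles are ratios against the floor, without an interval. Klrk1 is near 4.5-fold in both peptide ratios (4.46 and 4.79), and Tyrobp and Klrg1 lie on the lower side where a ratio could be formed.

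The second comparison sets TRP1high against TRP1low with the same peptide. It shares its libraries with the peptide comparison and is not independent of it. With K8, 1 of the 6 was at least 2-fold higher in TRP1high and 2 were lower, where 10.6% and 8.35% of all genes were. With M9, 3 were higher and 0 lower, where 7.37% and 5.58% of all genes were. Klrk1 was the 1 member higher in TRP1high with both peptides, as were 3.24% of all genes. It was 9.11-fold higher with K8 (7.51 to 11.2) and 8.49-fold higher with M9 (7.83 to 9.19).

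Gamma delta T cells also express NKG2D, and 3 of their markers differed between the TCRs in the same direction as Klrk1. The T cell receptor gamma constant genes Tcrg-C1, Tcrg-C2 and Tcrg-C4 held 910, 513 and 1449 reads in TRP1high with K8 and 106, 66 and 229 in TRP1high with M9, against 2 to 11 in the TRP1low libraries. Their log2 differences between the TCRs were 6.43, 5.0 and 8.15 with K8 and 5.1, 4.0 and 6.2 with M9. Tcrg-C1 and Tcrg-C2 are close copies of each other, so their single values are uncertain. With the peptide they went the other way from Klrk1, lower with M9 in TRP1high by 2-fold or more (-3.10, -2.95 and -2.67). Of the other gamma delta markers, Trdc stood at 9.40, 8.86, 10.20 and 9.64, higher in TRP1low but within 2-fold. Sox13 was lower in TRP1high with K8 (-1.14), and Trdv4 held 0, 0, 1 and 1 reads. Of 7 listed markers 6 were measured and 5 passed the filter, and the summed level of the 6 was 3559, 879, 1246 and 831 normalized counts. The part of gamma delta T cells in the Klrk1 values was not tested.

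The NKG2A and CD94 genes differed between the TCRs mainly in the M9 libraries. Klrc1 was 1.95-fold higher in TRP1high with K8 (1.02 to 3.71), under the 2-fold rule on the log2 scale at 0.93, and 8.37-fold higher with M9 (6.21 to 11.6). Klrd1 was 1.09-fold higher with K8 (0.951 to 1.24) and 3-fold higher with M9 (2.69 to 3.35). Hcst was 1.70-fold lower in TRP1high with K8 (1.45 to 2) and 1.10-fold higher with M9 (0.929 to 1.31). Tyrobp was 19.2-fold lower in TRP1high with K8 (6.13 to 96.7, 3 against 42 reads), while with M9 its ratio of 3.62-fold lower had an interval of 0.706 to 36.6 on 2 against 7 reads. Klrg1 was 3.65-fold lower in TRP1high with K8 when set against the 3-read floor, with no counting interval, and was at 0 in both M9 libraries. With a minimum of 50 normalized counts, Klrg1 was not counted here either, nor in the difference of the peptide differences.

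Whether the peptide difference itself depended on the TCR could not be tested with 1 library in each group. The M9 minus K8 difference was larger in TRP1high than in TRP1low by 2.11 for Klrc1 and 1.46 for Klrd1, and Klrk1 was 0.10 the other way (-0.10). By the 2-fold rule 4 of the 6 members differed in this way, against 18.8% of all genes, and 2 of the 4 were Klrg1 (3.58) and Tyrobp (2.42), which rest on few reads. In the scatter of peptide differences, Klrk1 lies close to the line of equal differences and Klrc1 and Klrd1 lie to its right.

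**Figure D3:**
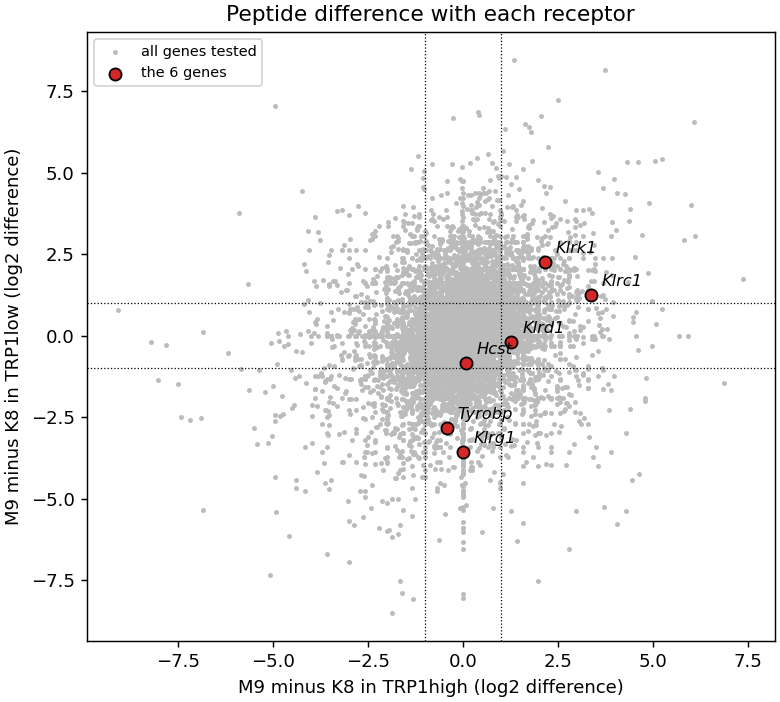
Log2 difference M9 minus K8 in TRP1high (horizontal) and TRP1low (vertical) for the 16100 genes tested (grey) and the 6 genes (red), with dotted lines at 2-fold. Klrk1 (2.16 and 2.25) and Klrc1 (3.38 and 1.26) lie in the upper right sector, and Klrg1 lies at 0 horizontally because both TRP1high libraries held 0 reads.

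An additive model of TCR and peptide over the 4 libraries (limma) leaves 1 residual degree of freedom. Its residual is the disagreement between the 2 pairs of libraries, not the spread between cultures. The SE and p-values also draw on the residuals of all genes, through a moderated variance with 1.4 prior degrees of freedom. They are thus not the disagreement of a single gene alone. For the peptide, 0% of the 16100 genes passed a Benjamini-Hochberg adjusted p of 0.05, and 1342 had an unadjusted p under 0.05. For the TCR it was also 0%, with 2043 genes under 0.05 before adjustment. Klrk1 had an estimate of 2.20 for M9 over K8 (SE 0.19, limma adjusted p = 0.58), higher in 2 of 2 pairs. For TRP1high over TRP1low its estimate was 3.13 (SE 0.19, limma adjusted p = 0.34), again in 2 of 2 pairs. With an intensity trend in the variance, the limma adjusted p of Klrk1 was 0.0029 for the TCR and 0.059 for the peptide. Over all alternatives its limma adjusted p ran from 0.0029 to 0.39 for the TCR and from 0.059 to 0.60 for the peptide. The SE of the other 5 members ran from 0.35 to 1.17, and their limma adjusted p from 0.60 to 0.76 for the peptide and from 0.40 to 0.68 for the TCR.

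Levels of different genes were compared per kb of exon. In TRP1high with K8, the order from the top was Hcst at 633 normalized counts per kb, Klrd1 at 579, Klrk1 at 393, Klrc1 at 19.7 and Tyrobp at 5.33. In TRP1high with M9, Klrk1 at 1754 and Klrd1 at 1406 stood above Hcst at 670, followed by Klrc1 at 209 and Tyrobp at 3.52. In TRP1low with K8, Hcst at 1076 and Klrd1 at 534 were followed by Tyrobp at 102, Klrk1 at 43.1, Klrc1 at 10.1 and Klrg1 at 7.74. In TRP1low with M9, the values were 607 for Hcst, 469 for Klrd1, 207 for Klrk1, 25.0 for Klrc1 and 12.7 for Tyrobp. Klrk1 stood below Tyrobp in TRP1low with K8 and above every other member in TRP1high with M9. With 1 library a group, neighbours in these orders could not be set against a spread between cultures. The orders also depend on the length used, the union of exons, which was 3433 bases for Klrk1 and 442 for Hcst. Which transcripts were in use was not measured.

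The NKG2D transcript differed widely against that of its adaptor DAP10. Per kb, the ratio of Klrk1 to Hcst was 0.621 (0.546 to 0.710), 2.62 (2.33 to 2.95), 0.0401 (0.0319 to 0.0497) and 0.340 (0.294 to 0.395) in the 4 libraries. None of these 4 intervals overlap. They take the exon lengths as exact, so the side of 1 on which a ratio lies depends on those lengths. The ratio of Klrc1 to its partner Klrd1 stayed under 1 in every library, from 0.0189 (0.0107 to 0.0324) in TRP1low with K8 to 0.149 (0.133 to 0.166) in TRP1high with M9. Klrk1 exceeded Klrc1 in every library, by 20.0 (14.6 to 28.3), 8.39 (7.60 to 9.29), 4.27 (2.41 to 7.69) and 8.27 (6.19 to 11.4) times. In this ratio of an activating to an inhibitory receptor transcript, the intervals of the 2 M9 libraries overlap and those of the 2 K8 libraries do not. It carries the uncertainty of Klrc1 and Klrc2 reads.

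**Figure D4:**
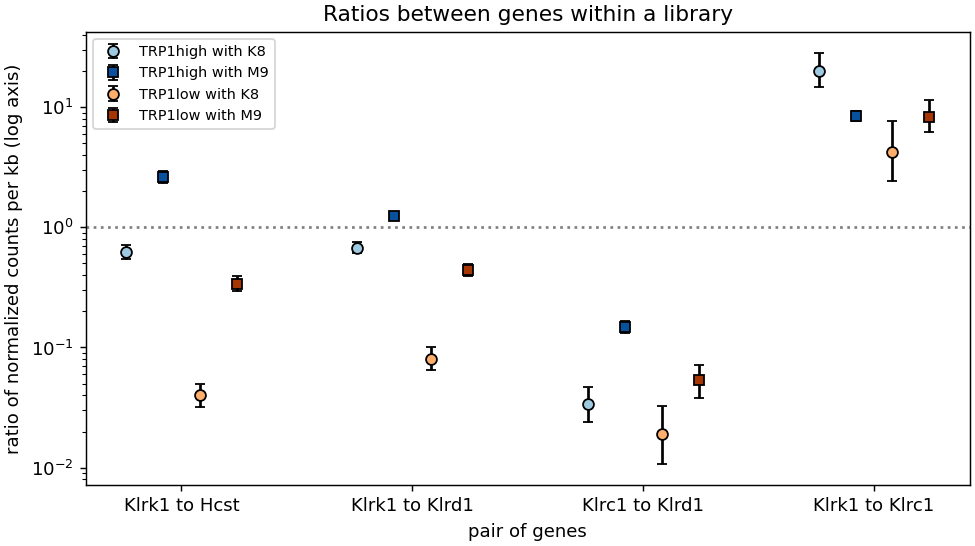
Ratios of normalized counts per kb of exon between pairs of genes within each library, on a log axis, with 95% counting intervals as bars and a dotted line at 1. The ratio of Klrk1 to Hcst runs from 0.0401 in TRP1low with K8 to 2.62 in TRP1high with M9, and Klrc1 to Klrd1 lies below 1 in all 4 libraries.

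The other lectin-like receptors of the NK gene complex were mostly at few reads. Of 22 listed, 8 were measured. With M9, 2 passed 2-fold upward (Klre1 and Klri2) and 1 downward (Klrb1c, 11 against 0 reads) in TRP1high, where 5.14% and 4.73% of all genes did. In TRP1low 0 passed upward and 2 downward (Klra7 and Klra17), where 7.67% and 7.43% of all genes did. With K8, Klrc2 was higher in TRP1high than in TRP1low and Klra7 and Klra17 were lower, where 10.6% and 8.35% of all genes were. With M9 Klre1 and Klri2 were higher in TRP1high and 0 lower, where 7.37% and 5.58% of all genes were. The list's median difference was -0.13 in TRP1high and -1.05 in TRP1low. The products of Klre1 and Klri2 form a heterodimer with each other. Klre1 stood at 2.46, 5.47, 3.25 and 3.23, and Klri2 at 3.58, 7.06, 3.88 and 3.76. In both, TRP1high with M9 was high (44 and 134 reads) and the other libraries held 5 to 12 reads. Along the chromosome Klre1 lies next to Klrd1, and Klri2 lies beyond Klrc1, so that of the 6 measured genes from Klre1 to Klri2 all but Klrc2 were highest in TRP1high with M9. Klrb1c, Klrb1f and the Ly49 genes Klra4, Klra7 and Klra17 held at most 11 reads in any library.

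**Figure D5:**
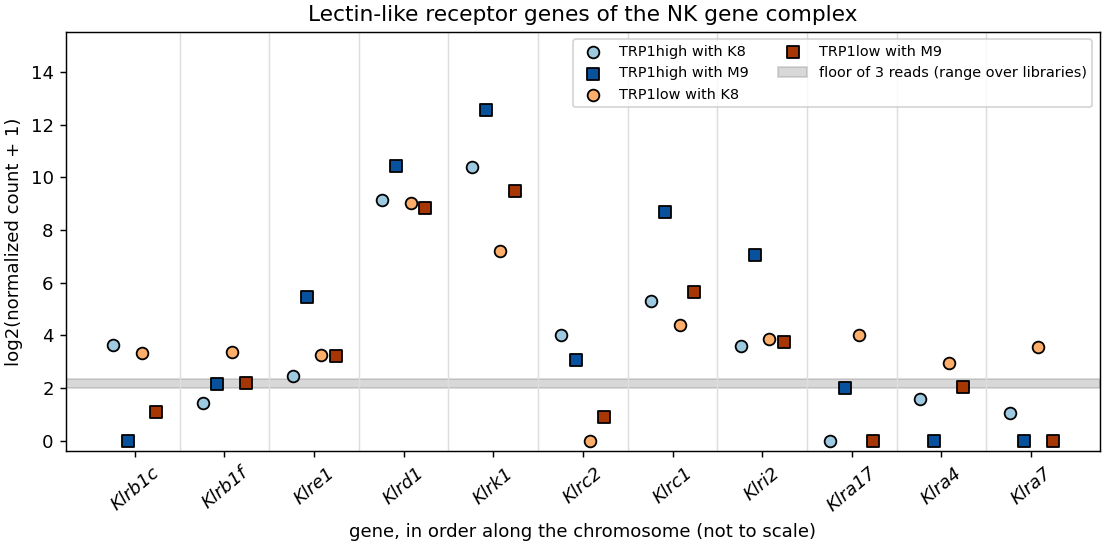
Levels of the 11 measured lectin-like receptor genes of the NK gene complex in chromosome order, as log2(normalized count + 1), 1 point per library, with the 3-read floor as a grey band. Klre1, Klrd1, Klrk1, Klrc1 and Klri2 are highest in TRP1high with M9 (dark blue squares), at 5.47, 10.41, 12.56, 8.70 and 7.06.

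Few genes for ligands of these receptors, which target cells display, were 2-fold apart in these T cell libraries. The libraries also held B cell transcripts, so the reads cannot be assigned to the T cells alone. Over all genes 4.73% to 10.6% passed 2-fold in each direction of a comparison, so low counts do not set these short lists apart. Of 9 listed NKG2D ligands 4 were measured and 2 passed the filter, with 0 at 2-fold in any of the 4 comparisons. Ulbp1 stood at 8.67, 8.68, 8.79 and 9.10, and H60b held 2 to 4 reads. Of 5 measured ligands of the inhibitory receptors and of the NKR-P1 receptors, 0 passed 2-fold with M9 in TRP1high and 1 was lower in TRP1low (Clec2i, -1.44). H2-T23, which encodes the NKG2A ligand Qa-1, stood at 13.13, 14.04, 12.70 and 13.42, with differences of 0.91 and 0.72 that lie under 2-fold. Clec2d, a ligand of NKR-P1 receptors, stood at 7.80, 8.12, 6.14 and 6.61, and was the 1 of the 5 that was 2-fold higher in TRP1high, with both peptides (1.66 and 1.51).

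The signalling genes below the adaptors were mostly within 2-fold, as were most of all genes tested. Of 18, 0 were higher and 2 lower with M9 in TRP1high (Syk and Lat2, median -0.10), where 5.14% and 4.73% of all genes were. In TRP1low 1 was higher and 1 lower (Lcp2 and Syk, median -0.11), where 7.67% and 7.43% of all genes were. Between the TCRs, Lat2 was higher in TRP1high with K8 (1.51) and Syk was lower with M9 (-1.93). The most abundant were Pik3cd, a catalytic subunit of the kinase that DAP10 recruits, at 13.28 to 13.91, and the scaffold Lat at 13.53 to 13.82. Syk, a kinase that binds ITAMs, was lower with M9 in both TCRs, at 5.64, 1.90, 4.97 and 3.83. It held few reads (49, 3, 22 and 13), and its value in TRP1high with M9 lay within the floor. B cells also express Syk and Lat2. With M9, 9 of 9 B cell markers were lower by 2-fold in TRP1high, and 4 were lower and 1 higher in TRP1low. Their summed level was 1729, 141, 981 and 340 normalized counts, with Pax5 and Cr2 at 0 in TRP1high with M9 and Cr2 at 0 in TRP1low with M9. Their part in the Syk and Lat2 values was not tested. None of the 5 phosphatase and adaptor genes below the inhibitory receptors (0 of 5) passed 2-fold in any of the 4 comparisons. Over all genes 4.73% to 10.6% passed in each direction of a comparison, so 0 of 5 does not set this list apart. Ptpn6, which encodes SHP-1, stood at 12.92, 13.29, 12.63 and 13.20, and Csk at 13.61, 13.33, 13.48 and 13.26.

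Genes linked to the state of effector or memory precursor cells, with which Klrg1 is usually read, went both ways. Of 14 measured, 3 were higher with M9 in TRP1high (Zeb2, Cx3cr1 and Prf1) and 5 lower (Eomes, Prdm1, Id2, Gzma and Bcl6), with a median of -0.19. Of all genes 5.14% and 4.73% were. In TRP1low 2 were higher (Gzmb and Prf1) and 5 lower (Id2, Tcf7, Il7r, Gzma and Bcl6), with a median of -0.20. Of all genes 7.67% and 7.43% were. Between the TCRs, 3 were higher and 4 lower in TRP1high with K8, where 10.6% and 8.35% of all genes were. With M9, 2 were higher and 2 lower, where 7.37% and 5.58% of all genes were. Zeb2, a transcription factor of terminal effector cells, stood at 5.35, 8.09, 4.01 and 4.97. By the 2-fold rule it was higher in TRP1high than in TRP1low with both peptides (1.34 and 3.12), while Id2, a transcription factor of effector cells, was lower in TRP1high with both (-1.12 and -1.37). Prf1, the perforin gene, was 3.45 and 2.78 higher with M9 in TRP1high and TRP1low. Id2, Gzma and Bcl6 were lower with M9 in both (-1.66 and -1.41, -3.59 and -6.71, -1.57 and -3.92). The most abundant, Gzmb (granzyme B) and Tcf7 (TCF1), differed with M9 by 0.08 and -0.45 in TRP1high and by 2.08 and -1.08 in TRP1low.

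The labels give T cells, and the series title CD8 T cells. All 8 CD8 T cell markers lay above the floor in every library, with summed levels of 110487 to 140632 normalized counts. Of 10 NK cell markers 6 were measured, and 3 to 6 lay above the floor. They summed to 2186, 968, 2322 and 1986, mostly from Eomes (9.63 to 11.15), which CD8 T cells also express. The list also holds Klre1 and Klri2, described above, which were highest in TRP1high with M9, as were Klrk1, Klrc1 and Klrd1. Klre1 and Klri2 held 44 and 134 reads there, against 5 to 12 elsewhere. Klrb1c, Klra4 and Klra7 were at 0 in that library, but held at most 11 reads in any library. The part of NK cells in the receptor values was not tested. CD4 T cell markers summed to 84.1, 119, 45.7 and 137, with Cd4 at 0 in TRP1high with M9.

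Patterns most like each member were sought by the Euclidean distance between the 4 log2 values after each gene's own mean was taken off, among genes with a mean of 10 normalized counts or more. For Klrk1 the 3 nearest of 4690 genes that varied by at least 1 log2 were Rfx8 (0.70), Hecw2 (0.71) and Nr4a2 (0.73). Of these, Rfx8 was under the floor in TRP1low with K8 (0.0) and M9 (1.79), and Hecw2 in TRP1low with K8 (0.86). Their distances to Klrk1 rest in part on those values. For Klrc1 they were Isg15 (0.42), Ramp3 (0.44) and Zeb2 (0.56), all highest in TRP1high with M9. For Klrd1 they were Amigo2 (0.16), Kif14 (0.18) and Arhgef25 (0.20). For Hcst, whose range is under 1 log2, the nearest of 12850 genes were Gpatch2 (0.05), Cbfb (0.06) and Gm35315 (0.08). Klrg1 was nearest to Sh3tc1 (0.27), Scin (0.33) and Wnt10a (0.56), and Tyrobp to Ccnjl (0.51), Plekha4 (0.76) and Cpq (0.85). Among the 6 themselves the closest pairs were Klrg1 with Tyrobp (1.06), Hcst with Klrd1 (1.5) and Klrc1 with Klrk1 (1.60), and the farthest was Klrk1 with Tyrobp (7.06). Klrg1 (0, 0, 8 and 0 reads) and Tyrobp (3, 2, 42 and 7) were at few or no reads outside TRP1low with K8. Any such genes lie close by this measure, so that pair shows little more. Klrg1 itself did not reach the mean asked of the other genes. These distances rest on 4 libraries that all genes share.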

How the data were processed

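RNA sequencing of sorted mouse T cells gave 4 libraries, 1 per group, grouped by sample title. Values are log2 of normalized counts for each gene, as the authors deposited them per the file headers. The submitters' processing notes name Salmon 0.8.2, DESeq2 1.20.0 and mm10, with settings not given in the sources used here. After the logarithm was undone and 1 taken away, 56.3% to 56.5% of values up to 50 lay within 0.01 of a whole multiple of 1 step per library. That step was taken as the worth of a read. The remaining values were not whole, so no count model was run, and estimated reads were rounded for counting intervals. The deposited scaling was kept.

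Of 16338 rows, 2 with a repeated name were left out, and the 16100 genes whose mean reached 1 normalized count were tested. Fold changes on the log2 scale are of values plus 1, and printed folds are ratios of normalized counts. limma 3.58.1 (R 4.3.3) fitted TCR and peptide, with Benjamini-Hochberg adjustment at 0.05. Exon lengths, positions and shared 31-base words came from GENCODE M21, and per-kb values use the union of exons of basic protein-coding transcripts. Scripts were tested on simulated data.

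The members, gene lists, tests and alternatives were chosen with earlier results of these data known. Text names all 6 members, list genes that passed 2-fold the same way in both peptide or both TCR comparisons, the 2 most abundant of each list, and the 3 genes most like each member. Other genes of the lists and markers were named after their values were seen. Alternatives were another pseudocount, other filters, 2 scalings, a 3-read floor and an intensity trend. A B cell marker of the original list is not reported here and is left out of that list's counts and sums.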

Additional observations from a re-analysis of the deposited data

Results flagged for a closer look

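Klrd1 differed with the peptide in opposite directions in the TCRs, higher with M9 in TRP1high (1.28) and lower in TRP1low (-0.19), a gap of 1.46 on the log2 scale. Hcst did so as well, at 0.08 and -0.82, a gap of 0.91. Seen by TCR, Hcst was lower in TRP1high with K8 (-0.76) and higher with M9 (0.14), a gap of 0.90, which is the same contrast of the 4 libraries read the other way. These differences were not tested, since each group held 1 library. Counting intervals included no difference for Klrd1 in TRP1low and for Hcst in TRP1high.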

How the results depend on the processing

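With a pseudocount of 10, 1059 genes were 2-fold apart between M9 and K8 in TRP1high, against 1589. Without the filters on low values the counts for M9 against K8 in TRP1high and TRP1low and for TRP1high against TRP1low with K8 and M9 were 2833, 4003, 4586 and 3314, against 1589, 2431, 3046 and 2085. With a minimum of 50 normalized counts they were 768, 1338, 1915 and 1166, and the difference of the peptide differences gave 1593 against 3019. That minimum left 2 of the 4 members 2-fold apart with M9 in TRP1low, Klrk1 and Tyrobp. Without the filters on low values, 4 members were 2-fold apart between the TCRs with M9, against 3. The added member was Tyrobp, lower in TRP1high (-1.45) on 2 against 7 reads. For the TCR, limma called 32 genes with a pseudocount of 10, 30 with a minimum mean of 50 and 260 with an intensity trend, against 0, and for the peptide 5 with the trend, against 0. The cause was not tested. Of 180 member differences under alternatives 0 reversed, and 35 were labelled as moved. Some moved little, such as Tyrobp in TRP1high from -0.42 to -0.44 with equal totals. Klrg1 moved much, in TRP1low from -3.58 to -1.07 with a pseudocount of 10 and to -1.53 with the 3-read floor. Rescaling shifted the libraries by -0.042 to 0.024 log2. No paired analysis was possible because each group held 1 library and the labels carry no replicate numbers to serve as a block. The additive limma model sets libraries against each other by TCR and by peptide, and not by replicate. Depth limits Klrg1 and Tyrobp, which held under 10 reads in 4 and 3 libraries.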
